A study of Mus musculus with 8 samples.

Results

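The BCL2 family genes described here were 10 genes listed by name among the 38991 gene identifiers measured, a list drawn up with earlier results of these data known. They comprised 3 anti-apoptotic genes (Bcl2, Bcl2l1 and Mcl1), 5 BH3-only genes (Bcl2l11, Bmf, Bbc3, Pmaip1 and Bid) and 2 effector genes (Bax and Bak1). Their RNA was measured by RNA sequencing in 8 cultures of RGd2 (Rex1GFPd2) mouse embryonic stem cells (ESCs), a line of strain 129 that carries a short-lived GFP read from Rex1. All cultures had spent 6 passages in 2i and then 5 passages, to passage 11, in N2B27 medium on gelatin with 1 of 4 combinations of the cytokine LIF, the GSK3 inhibitor CHIR99021 (CH, 3 µM) and the MEK inhibitor PD0325901 (PD, 1 µM). The 2i+LIF cultures received LIF, CH and PD, the 2i cultures CH and PD, the LIF+PD cultures LIF and PD without CH, and the CH+LIF cultures CH and LIF without PD, with 2 cultures in each condition. Cultures were split at intervals of 3 days and reseeded at 15000 cells per cm2. The cultures came from 1 line and the labels do not say whether the 2 replicates were separate derivations or parallel dishes, so p-values measure the spread between these cultures, which may be technical.

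The BCL2 family sets whether a cell releases cytochrome c from its mitochondria and activates caspases. The anti-apoptotic proteins hold the effectors BAX and BAK inactive, and the BH3-only proteins bind the anti-apoptotic proteins or the effectors and so promote the opening of the outer mitochondrial membrane. Several BH3-only proteins are controlled through their transcription, for example by FOXO factors (Bcl2l11 and Bbc3) and p53 (Bbc3 and Pmaip1), and ERK signalling marks the product of Bcl2l11 for degradation, which RNA levels do not record. Mouse ESCs are known to die readily when stressed, with MCL1 and BCL-XL, the product of Bcl2l1, among the proteins that protect them.

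Upstream sequence is shown for the 3 BH3-only genes whose RNA was higher in the cultures without CH, because it could be searched for the motifs of the regulators named above. RefSeq gave promoter windows of 300 bases (GRCm38.p6, from 250 bases before to 50 after a transcription start) for 9 of the 10 genes, with 16 windows in all. Pmaip1 had no window and was not searched. The stretches printed here end at the base before the start. In the first 2 lines the capitals mark the FOXO motif GTAAACA or its reverse complement TGTTTAC, and in the third line a p53 half-site.
Bcl2l11, chr2:128125788-128126037, plus strand: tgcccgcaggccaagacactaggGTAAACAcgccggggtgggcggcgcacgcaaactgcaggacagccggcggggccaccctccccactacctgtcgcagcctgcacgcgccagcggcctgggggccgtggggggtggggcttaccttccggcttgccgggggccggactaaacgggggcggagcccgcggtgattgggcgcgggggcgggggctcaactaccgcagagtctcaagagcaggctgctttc
Bbc3, chr7:16310011-16310260, plus strand: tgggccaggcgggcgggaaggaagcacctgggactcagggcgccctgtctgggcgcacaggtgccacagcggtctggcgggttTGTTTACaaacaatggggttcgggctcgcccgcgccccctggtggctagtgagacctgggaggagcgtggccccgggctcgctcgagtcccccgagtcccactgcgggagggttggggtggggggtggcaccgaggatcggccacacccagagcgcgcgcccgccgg
Bmf, chr2:118544588-118544837, minus strand: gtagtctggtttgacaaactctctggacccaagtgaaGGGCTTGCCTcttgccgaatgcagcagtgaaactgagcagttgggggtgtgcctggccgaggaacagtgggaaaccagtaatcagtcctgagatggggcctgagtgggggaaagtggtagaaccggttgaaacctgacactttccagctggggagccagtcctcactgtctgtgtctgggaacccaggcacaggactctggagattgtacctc
The FOXO motif began 227 bases before this Bcl2l11 start and 167 bases before this Bbc3 start, and Bbc3 and Bcl2l11 were the only members with it in any window. It was found, on either strand, in 3.65% of the 32851 promoter windows of that length in the RefSeq table. The p53 half-site, which began 213 bases before the Bmf start shown, was in 8.36% of windows and among the members also in that of Bax. The E-box CACGTG was in 7.15% of windows, with Bax and Bbc3 among them. The TCF/LEF motif CTTTGAT was in 3.73% of windows and in none of the 16 member windows. By gene, the shares with at least 1 such window were 4.05% (FOXO), 9.55% (p53 half-site), 8.09% (E-box) and 4.29% (TCF/LEF). RefSeq gives these genes further starts whose windows lack the marked motif: 1 of the 2 Bcl2l11 windows and 1 of the 3 Bbc3 windows held the FOXO motif, and 1 of the 3 Bmf windows held the p53 half-site. The windows shown are the ones holding the marked motif, and those of Bbc3 and Bmf lie inside the gene loci given below. At the upstream ends of the Bbc3 and Bmf loci the windows held neither the FOXO motif nor the p53 half-site. A match is a string of letters and not evidence of binding.

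The deposited values were FPKM, reads scaled to the length of the transcript and to the size of the library, so levels could be compared between genes on a per-length scale. Sequencing depth was known only as a ratio between cultures and ranged from 0.499 (2i replicate 1) to 1.18 (CH+LIF replicate 2) times that of 2i+LIF replicate 1. The pathway readouts below are differences from 2i+LIF on the log2(FPKM + 1) scale. Socs3, a LIF target, was lower by a difference of -4.65 in 2i (adjusted p = 5.3e-05). Axin2, a Wnt target read here for CH, differed by -4.29 in LIF+PD (adjusted p = 6.5e-06). The ERK targets Dusp6 and Spry4 were higher by 2.32 and 3.97 in CH+LIF (adjusted p = 0.00192 and 0.000234). All 7 naïve ESC markers (Pou5f1, Sox2, Nanog, Zfp42, Esrrb, Klf4 and Tfcp2l1) were at 1 FPKM or more in every culture, with a summed level of 2932 to 3807 FPKM, most of it Pou5f1 at 1625 to 2269 FPKM. Single naïve markers differed from 2i+LIF: Klf4, Tfcp2l1 and Esrrb were lower in 2i and in LIF+PD, by -2.00 and -0.85 for Klf4, Nanog and Sox2 were lower in CH+LIF, by -0.80 for Nanog, and Zfp42 was higher in LIF+PD. Summed markers of other cell types moved with the conditions, and their part in the results was not tested. Neural markers (Sox1 and Pax6) summed to 1.09 to 1.13 FPKM in 2i+LIF, 1.84 to 2.49 in CH+LIF, 7.81 to 9.26 in 2i and 12.03 to 12.05 in LIF+PD, the last 2 of them carried by Pax6, since Sox1 was at most 1.34 FPKM there. Mesoderm markers (T, Mixl1 and Kdr) ranged from 1.78 FPKM in LIF+PD to 37.4 FPKM in CH+LIF, mainly through T, while Kdr was highest in LIF+PD at 1.41 and 1.38 FPKM. Epiblast markers (Fgf5, Otx2, Pou3f1 and Dnmt3b) ranged from 35.7 FPKM in 2i+LIF to 104.1 FPKM in LIF+PD. Most of that rise was Otx2, with means of 2.12 FPKM in 2i+LIF, 49.8 in LIF+PD and 2.13 in CH+LIF. Dnmt3b instead had its highest mean in CH+LIF, at 66.9 FPKM beside 46.4 in LIF+PD and 34.2 in 2i+LIF. Endoderm markers (Gata4, Gata6, Sox17 and Foxa2) summed to 1.07 to 2.44 FPKM and trophectoderm markers (Cdx2, Eomes and Krt7) to 2.31 to 17.8 FPKM. Within the latter sum, Cdx2 had means of 9.07 FPKM in 2i+LIF and 1.31 in CH+LIF, and Eomes 1.53 and 9.41. Krt7 was highest in LIF+PD, at a mean of 0.862 FPKM. Fibroblast markers summed to at most 4.19 FPKM, with Col3a1 at 0 in all cultures. Thy1 among them had means of 0.138 FPKM in 2i+LIF, 2.42 in 2i, 1.17 in LIF+PD and 2.90 in CH+LIF. In bulk RNA, a change in the number of cells of a type cannot be told apart from a change in RNA per cell.

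**Figure D1:**
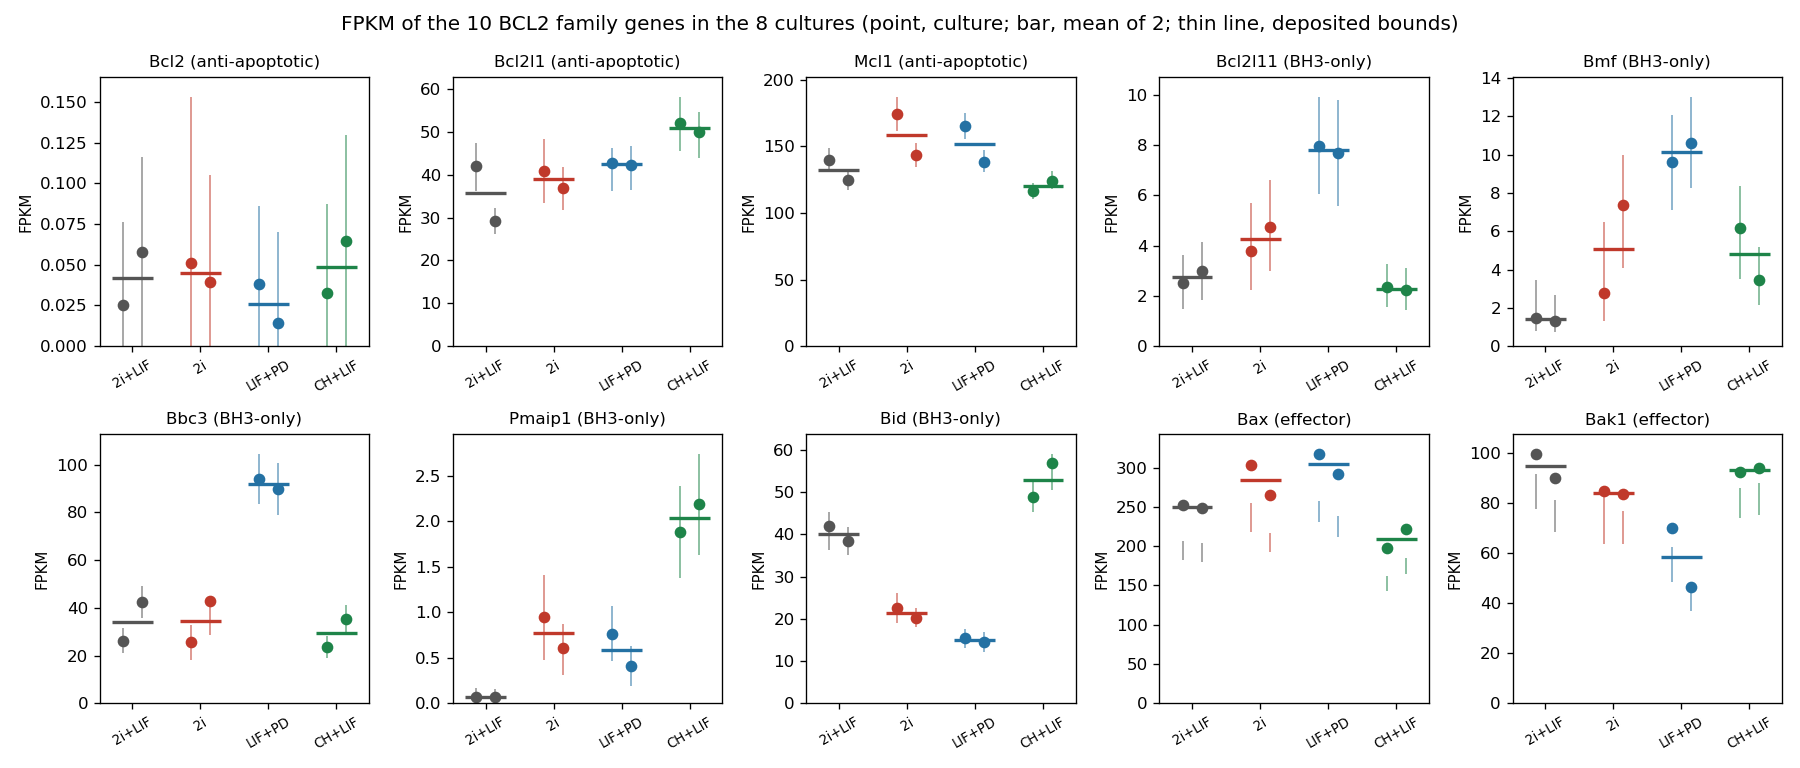
FPKM of the 10 BCL2 family genes in each of the 8 cultures, 1 panel per gene with its own linear axis from 0. Points are cultures, 2 per condition, horizontal bars their mean, and thin vertical lines the bounds deposited with each value; Bcl2l11 and Bbc3 were highest in both LIF+PD cultures, where Bid was lowest, and the Bax points lie outside their bounds in all 8 cultures.

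The members spanned a wide range of levels. Bax was the most abundant at 197 to 317 FPKM, followed by Mcl1 at 116 to 174 FPKM and then Bak1 at 46.5 to 99.6 FPKM. Bcl2l1, Bbc3 and Bid lay in an overlapping range, from 14.6 to 94.0 FPKM, Bcl2l11 and Bmf between 1.34 and 10.6 FPKM, and Pmaip1 between 0.0666 and 2.19 FPKM. Bcl2 was the lowest. A test across all genes (limma on log2(FPKM + 1), 1 fit over the 8 cultures with 4 residual degrees of freedom) covered the 12927 genes with at least 1 FPKM in at least 2 cultures, with Benjamini-Hochberg adjustment over all of them and an adjusted p below 0.05 as the threshold. Of the members, 9 entered it and Bcl2 did not. Pmaip1 entered only through its level in CH+LIF, so its contrasts with that condition were partly fixed by the filter and are given without a test, and the member counts of the next paragraph are given without it.

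Of the 3 comparisons with 2i+LIF, that of the cultures without CH gave the most calls among these genes. In LIF+PD, Bmf, Bbc3 and Bcl2l11 rose and Bid and Bak1 fell against 2i+LIF, which is 5 of 8 members, beside 25.2% of all genes tested (14.8% higher and 10.4% lower). In 2i, which lacked LIF, 1 of 8 members changed against 2i+LIF, a fall of Bid, beside 18.6% of all genes (9.77% higher and 8.86% lower). In CH+LIF, which lacked PD, 2 of 8 members changed against 2i+LIF, with Bcl2l1 and Bid higher, beside 25.4% of all genes (12.2% higher and 13.3% lower). These 3 comparisons share the 2i+LIF cultures. In LIF+PD against 2i, Bbc3 and Bcl2l11 were higher and Bid lower, which is 3 of 8 members beside 25.1% of all genes (14.0% higher and 11.1% lower). In CH+LIF against 2i, Bid was higher and Bcl2l11 and Bax lower, which is 3 of 8 members beside 23.9% (10.6% higher and 13.3% lower). In CH+LIF against LIF+PD, Bid and Bak1 were higher and Bbc3, Bcl2l11 and Bax lower, which is 5 of 8 members beside 30.4% (12.6% higher and 17.8% lower). Several of these counts depended on single cultures. In 2i against 2i+LIF it was 2 without 2i replicate 1. In CH+LIF against 2i+LIF it was 1 without 2i+LIF replicate 1 and 0 without 2i+LIF replicate 2 or without any 1 of the CH+LIF or LIF+PD cultures, and also 0 with no filter on low values. In LIF+PD against 2i it was 0 without 2i replicate 1 and 1 without either LIF+PD culture. Without CH+LIF replicate 1 it was 1 in CH+LIF against 2i and 3 in CH+LIF against LIF+PD. In LIF+PD against 2i+LIF it was 4 to 5 in all of these fits. With so few members these shares are descriptions.

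**Figure D2:**
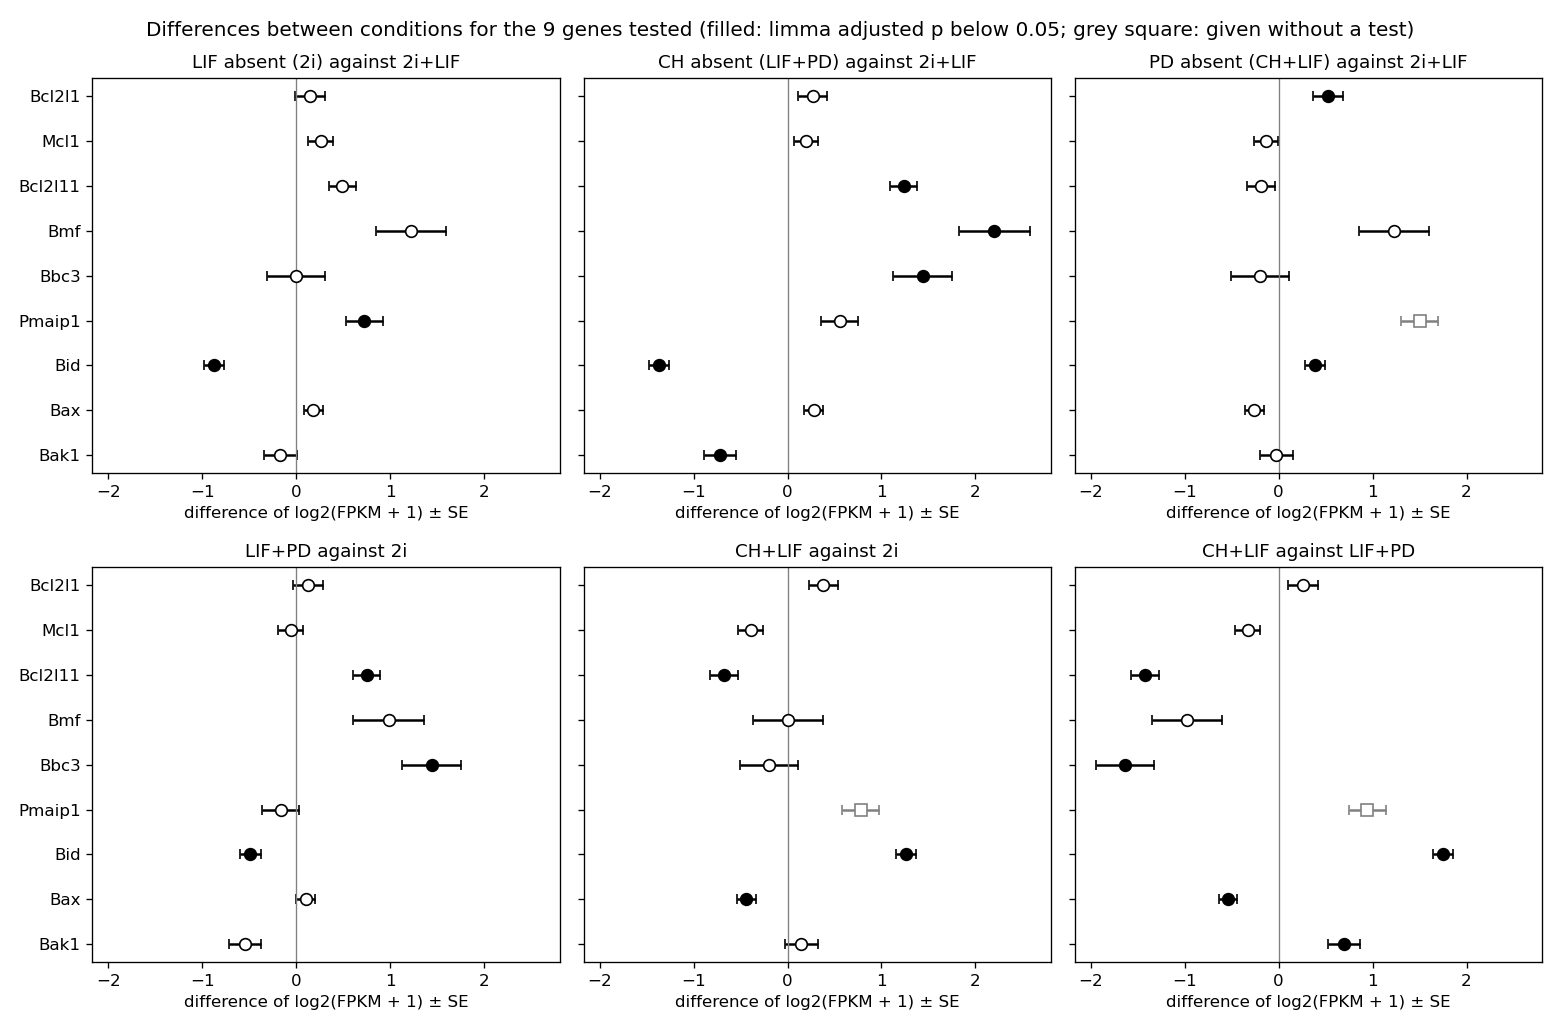
Difference of log2(FPKM + 1) between conditions for the 9 members tested, 1 panel per comparison. Points are limma estimates from 2 cultures per condition, bars are ± 1 SE, and filled points have an adjusted p below 0.05. Grey squares are Pmaip1 in CH+LIF, given without a test. Against 2i+LIF, the LIF+PD panel holds filled points on both sides, at 2.20 for Bmf and -1.37 for Bid. The 2i panel does so too, at 0.725 for Pmaip1 and -0.88 for Bid.

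Among the anti-apoptotic members, Bcl2 (ENSMUSG00000057329, chr1:106538178-106714274 on GRCm38) was close to absent. Its FPKM was 0.0254 and 0.0580 in 2i+LIF, 0.0510 and 0.0394 in 2i, 0.0381 and 0.0141 in LIF+PD, and 0.0327 and 0.0648 in CH+LIF. The lower bound deposited with each of these values was 0, and no difference between conditions was detectable at this level. Nearly all FPKM of this group came from Mcl1 and Bcl2l1.

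Mcl1 (ENSMUSG00000038612, chr3:95658721-95663176), which encodes a short-lived protein that binds BIM, PUMA and NOXA, gave 140.1 and 124.5 FPKM in 2i+LIF, 174.2 and 143.4 in 2i, 165.5 and 138.6 in LIF+PD, and 116.3 and 124.3 in CH+LIF. The highest values came from 2i and LIF+PD and the lowest from CH+LIF, whose 2 cultures lay below all others. No difference in Mcl1 passed the test in the 6 comparisons as fitted. The nearest to it was CH+LIF against 2i, at -0.39 ± 0.13 (SE) on the log2 scale (adjusted p = 0.0686), followed by CH+LIF against LIF+PD at -0.33 ± 0.13 (adjusted p = 0.0968). The former passed after quantile normalization (0.0334) and with a block for replicate number (0.0432), and was -0.53 without 2i replicate 2. Against 2i+LIF the differences were 0.26, 0.20 and -0.13 in 2i, LIF+PD and CH+LIF, each with an SE of 0.13.

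Bcl2l1 (ENSMUSG00000007659, chr2:152780668-152831728), which encodes BCL-XL and its shorter pro-apoptotic splice form BCL-XS, gave 42.0 and 29.3 FPKM in 2i+LIF, 40.9 and 36.9 in 2i, 42.7 and 42.2 in LIF+PD, and 52.1 and 49.9 in CH+LIF. Both CH+LIF cultures were above the other 6, and replicate 2 of 2i+LIF was the lowest. The rise in CH+LIF against 2i+LIF was 0.53 ± 0.16 (SE) on the log2 scale, a ratio of means of 1.43 (adjusted p = 0.0476). This call rested on a narrow margin, with an adjusted p of 0.156 and a difference of 0.27 without 2i+LIF replicate 2. Its adjusted p was also above the threshold without 2i replicate 1 (0.0587) or 2 (0.0582), LIF+PD replicate 1 (0.0709) or 2 (0.0712), and CH+LIF replicate 1 (0.177) or 2 (0.120), and with no filter on low values (0.0963) or with only the 2 conditions in the fit (0.0768). In 2i and LIF+PD the differences from 2i+LIF were 0.14 and 0.27 (adjusted p = 0.564 and 0.253), the latter 0.52 without 2i+LIF replicate 1 (0.0324). CH+LIF against 2i was 0.38 (adjusted p = 0.121), and passed without 2i+LIF replicate 1 (0.0333) or 2 (0.033). Gene-level FPKM do not separate the 2 splice forms.

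Of the BH3-only members, Bcl2l11 (ENSMUSG00000027381, chr2:128126038-128162547), which encodes BIM, had 2.50 and 3.00 FPKM in 2i+LIF, 3.79 and 4.76 in 2i, 7.96 and 7.68 in LIF+PD, and 2.34 and 2.24 in CH+LIF. The 4 conditions did not overlap and stood in the order CH+LIF, 2i+LIF, 2i and LIF+PD. CH+LIF and 2i+LIF, neighbours in that order, differed by -0.19 ± 0.15 (SE, adjusted p = 0.388). The difference of 2i from 2i+LIF, 0.49 ± 0.15, narrowly missed the threshold (adjusted p = 0.0589) and passed it with the midpoint of the deposited bounds in place of the FPKM (0.0415). LIF+PD was above every other condition, by 1.24 ± 0.15 against 2i+LIF (adjusted p = 0.00145, a ratio of means of 2.84) and by 0.75 ± 0.15 against 2i (adjusted p = 0.0101). CH+LIF was lower than LIF+PD by a difference of -1.42 (adjusted p = 0.000655) and lower than 2i by -0.68 (adjusted p = 0.0173). The change against 2i passed the threshold narrowly for LIF+PD, at an adjusted p of 0.0514 without 2i replicate 1 and 0.0587 without LIF+PD replicate 1. For CH+LIF against 2i it was 0.0705 without 2i replicate 2, 0.0690 without CH+LIF replicate 1, 0.0745 without CH+LIF replicate 2 and 0.0522 with only those 2 conditions in the fit.

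Bmf (ENSMUSG00000040093, chr2:118528757-118549687), which encodes a BH3-only protein held at the cytoskeleton until it is released by stress, had 1.48 and 1.34 FPKM in 2i+LIF, 2.78 and 7.36 in 2i, 9.59 and 10.6 in LIF+PD, and 6.17 and 3.45 in CH+LIF. Both 2i+LIF cultures were below the other 6 and both LIF+PD cultures above them, while 2i and CH+LIF overlapped and their replicates lay far apart. The rise in LIF+PD against 2i+LIF was 2.20 ± 0.37 (SE) on the log2 scale (adjusted p = 0.00631), a ratio of means of 7.16. In 2i and CH+LIF the differences from 2i+LIF were 1.22 ± 0.37 and 1.23 ± 0.37, with adjusted p of 0.0635 and 0.0510. Both lay near the threshold. The 2i difference passed it with a pseudocount of 0.1 (0.0474), with the midpoint of the bounds (0.0272) and without 2i replicate 1 (0.0132), and its size was 1.79 without that culture and 0.65 without 2i replicate 2. The CH+LIF difference passed it with a pseudocount of 0.1 (0.0361), quantile normalization (0.0473), only the 2 conditions in the fit (0.0226), the midpoint of the bounds (0.0355) and without 2i replicate 1 (0.0138) or 2 (0.0139), and its size was 0.89 and 1.57 without CH+LIF replicates 1 and 2. LIF+PD against 2i gave 0.98 ± 0.37 (adjusted p = 0.0995, and 0.0148 without 2i replicate 2). CH+LIF against LIF+PD gave -0.97 ± 0.37 (adjusted p = 0.0906), which passed with only the 2 conditions in the fit (0.0376), the midpoint of the bounds (0.0309) or without 2i replicate 1 (0.0234) or 2 (0.0235), and CH+LIF against 2i gave 0.0075 ± 0.37 (adjusted p = 0.994). The 2i replicate with the lower value was the one with a relative depth of 0.499, whose part in this spread was not tested.

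Bbc3 (ENSMUSG00000002083, chr7:16309616-16318205), which encodes PUMA, a potent BH3-only protein, had 26.1 and 42.4 FPKM in 2i+LIF, 25.6 and 43.0 in 2i, 94.0 and 89.8 in LIF+PD, and 23.6 and 35.4 in CH+LIF. The 3 conditions with CH overlapped throughout, whereas both cultures without CH were above 2 times the highest of them. LIF+PD was higher than 2i+LIF by 1.44 ± 0.31 (SE, adjusted p = 0.0162), a ratio of means of 2.68, and higher than 2i by 1.44 (adjusted p = 0.0152). It was also higher than CH+LIF, for which the difference of CH+LIF from LIF+PD was -1.63 (adjusted p = 0.00798). In 2i and CH+LIF the differences from 2i+LIF were -0.0023 and -0.20 (adjusted p = 0.998 and 0.680). Against 2i+LIF the adjusted p was 0.0860 without 2i+LIF replicate 1, 0.0761 without LIF+PD replicate 1 and 0.0662 without LIF+PD replicate 2, with differences of 1.10, 1.41 and 1.47. Against 2i it was 0.0713 without 2i replicate 1, 0.0710 without LIF+PD replicate 1 and 0.0638 without LIF+PD replicate 2, and CH+LIF against LIF+PD gave 0.0507 without CH+LIF replicate 1.

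Pmaip1 (ENSMUSG00000024521, chr18:66458604-66465550), which encodes NOXA, a BH3-only protein that targets MCL1, was the lowest BH3-only member. It had 0.0730 and 0.0666 FPKM in 2i+LIF, 0.950 and 0.603 in 2i, 0.765 and 0.404 in LIF+PD, and 1.88 and 2.19 in CH+LIF. Both CH+LIF cultures were above all others and both 2i+LIF cultures below them, with 2i and LIF+PD overlapping. On the log2(FPKM + 1) scale, where the pseudocount of 1 understates changes at such levels, CH+LIF differed from 2i+LIF by 1.50 ± 0.20 (SE), from 2i by 0.78 and from LIF+PD by 0.95, given as descriptions without a test because its level in CH+LIF was what brought the gene past the filter. In 2i, Pmaip1 exceeded 2i+LIF by 0.72 ± 0.20 (adjusted p = 0.0429), and that call was lost in each fit without a culture of 2i+LIF, 2i or LIF+PD, at adjusted p of 0.145 and 0.147, 0.160 and 0.0612, and 0.0562 and 0.0557 for replicates 1 and 2 respectively. It was also lost with a pseudocount of 5 (0.0799) and after quantile normalization (0.0506). The LIF+PD difference from 2i+LIF was 0.56 (adjusted p = 0.0788), and with a pseudocount of 0.1 it passed (0.0241). The lower bounds of the 2i+LIF values were 0, and without either CH+LIF culture Pmaip1 no longer passed the filter and had no value.

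Bid (ENSMUSG00000004446, chr6:120891930-120916853), which encodes a BH3-only protein that is cleaved into its active form and thereby links death receptors to mitochondria, moved in the opposite direction to Bcl2l11, Bmf and Bbc3 when CH was absent. It had 42.0 and 38.4 FPKM in 2i+LIF, 22.5 and 20.3 in 2i, 15.4 and 14.6 in LIF+PD, and 49.0 and 56.8 in CH+LIF. The 4 conditions did not overlap and each of the 6 comparisons passed the threshold. LIF+PD was below 2i+LIF by a log2 difference of -1.37 ± 0.11 (SE, adjusted p = 0.000337, a ratio of means of 0.372), and 2i was below it by -0.88 ± 0.11 (adjusted p = 0.00227, a ratio of 0.532). CH+LIF was above 2i+LIF by 0.38 ± 0.11 (adjusted p = 0.0390), above 2i by 1.26 (adjusted p = 0.000498) and above LIF+PD by 1.75 (adjusted p = 9.97e-05), a ratio of means of 3.54. LIF+PD was below 2i by -0.49 (adjusted p = 0.0162).

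The smaller of the Bid differences were less secure. CH+LIF against 2i+LIF had adjusted p of 0.0873 and 0.178 without 2i+LIF replicates 1 and 2, 0.0544 and 0.174 without CH+LIF replicates 1 and 2, and 0.0579 and 0.0581 without LIF+PD replicates 1 and 2. It had 0.0611 with no filter and 0.0566 with only the 2 conditions in the fit. LIF+PD against 2i had 0.0820 without 2i replicate 1, 0.0554 without LIF+PD replicate 1 and 0.0844 without LIF+PD replicate 2. The Bid locus shares 913 bases with Bcl2l13 on the opposite strand, a gene at 5.83 to 8.96 FPKM, and whether the FPKM used strand is not given in the sources used here.

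Of the effectors, which form the pores in the outer mitochondrial membrane, Bax (ENSMUSG00000003873, chr7:45461695-45466898) had 251.9 and 248.3 FPKM in 2i+LIF, 303.6 and 265.2 in 2i, 317.3 and 291.5 in LIF+PD, and 197.3 and 221.5 in CH+LIF. CH+LIF was lowest and did not overlap any other condition, and 2i and LIF+PD overlapped each other above 2i+LIF. Bax was lower in CH+LIF than in LIF+PD by a log2 difference of -0.54 ± 0.10 (SE, adjusted p = 0.00725) and than in 2i by -0.44 ± 0.10 (adjusted p = 0.0209). The first had an adjusted p of 0.0516 without LIF+PD replicate 1, and the second 0.0946 without 2i replicate 1, 0.109 without CH+LIF replicate 1 and 0.0601 with only those 2 conditions in the fit. Both calls were also made with the midpoint of the deposited bounds in place of the FPKM. Against 2i+LIF the differences were 0.18, 0.28 and -0.26 in 2i, LIF+PD and CH+LIF, and none passed the test (adjusted p = 0.254, 0.0812 and 0.103). The deposited Bax values lay outside their own deposited bounds in all 8 cultures, which 4.83% to 8.28% of the values above 0 did in each culture, and the locus overlaps Gm45808 on the same strand over 915 bases.

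Bak1 (ENSMUSG00000057789, chr17:27019810-27029009) had 99.6 and 90.2 FPKM in 2i+LIF, 84.7 and 83.5 in 2i, 70.2 and 46.5 in LIF+PD, and 92.4 and 94.1 in CH+LIF. Both LIF+PD cultures were below the other 6, at unequal levels, and CH+LIF overlapped 2i+LIF. Bak1 fell in LIF+PD against 2i+LIF by a log2 difference of -0.72 ± 0.17 (SE, adjusted p = 0.0235), a ratio of means of 0.615, and CH+LIF exceeded LIF+PD by 0.70 (adjusted p = 0.0222). The former had adjusted p of 0.114 and 0.0682 without 2i+LIF replicates 1 and 2, and the latter 0.0853 and 0.0836 without CH+LIF replicates 1 and 2. Their sizes rested on the lower LIF+PD culture: without LIF+PD replicate 2 they were -0.43 (adjusted p = 0.0453) and 0.40 (0.044), and without LIF+PD replicate 1 they were -1.01 (0.00346) and 0.99 (0.00298). With no filter they had 0.0534 and 0.0519, and with only the 2 conditions in the fit 0.053 and 0.0504. LIF+PD against 2i was -0.55 (adjusted p = 0.0576). That difference passed with the midpoint of the bounds (0.0178) and with a block for replicate number (0.0453). It was -0.84 and -0.26 without LIF+PD replicates 1 and 2. The 2i and CH+LIF cultures differed from 2i+LIF by -0.17 and -0.02 (adjusted p = 0.533 and 0.937). Bak1 values lay outside their deposited bounds in 6 cultures, and Bbc3 in 1. Ggnbp1, at 1.48 to 4.37 FPKM, covers the whole Bak1 locus of 9200 bases on the opposite strand.

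The anti-apoptotic and BH3-only members were then compared within each culture, as the summed FPKM of the 5 BH3-only genes over that of the 3 anti-apoptotic genes, a ratio that does not depend on scaling between cultures. It was 0.397 and 0.554 in 2i+LIF, 0.259 and 0.421 in 2i, 0.613 and 0.681 in LIF+PD, and 0.492 and 0.575 in CH+LIF. The anti-apoptotic sum, most of it Mcl1, exceeded the BH3-only sum in all 8 cultures, and the 2 LIF+PD cultures had the highest ratios. That order rested on Mcl1, since Bcl2l1 was at 29.3 to 52.1 FPKM, below BH3-only sums of 55.7 to 127.7 FPKM. It holds for these chosen members only, as other relatives were not summed. On the log2 scale the ratio differed from that of 2i+LIF by 0.46 in LIF+PD, -0.51 in 2i and 0.18 in CH+LIF, given without a test because the members were chosen. The direction for 2i turned to 0.17 when the members' log2(FPKM + 1) were averaged instead of summed, and that for CH+LIF turned to -0.0590 without 2i+LIF replicate 1, to -0.32 without Mcl1 and to -0.00400 without Bid. The difference for 2i was -0.041 without Bid, and ran from -0.857 without 2i replicate 2 to -0.153 without 2i replicate 1. The LIF+PD difference was 1.34 without Bid, and ran from 0.222 without 2i+LIF replicate 1 to 0.704 without 2i+LIF replicate 2.

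The make-up of the BH3-only sum also differed between conditions. Bid supplied 58.2% and 45.1% of the BH3-only FPKM in 2i+LIF, 40.5% and 26.7% in 2i, 12.03% and 11.8% in LIF+PD, and 59.0% and 56.8% in CH+LIF. Bbc3 supplied 36.1% and 49.8% in 2i+LIF, 46.0% and 56.6% in 2i, 73.6% and 73.0% in LIF+PD, and 28.5% and 35.4% in CH+LIF. Bcl2l11, Bmf and Pmaip1 together made up 5.17% to 16.7%. Mcl1 was 69.1% to 81.0% of the anti-apoptotic sum, with its 2 lowest shares in CH+LIF.

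**Figure D3:**
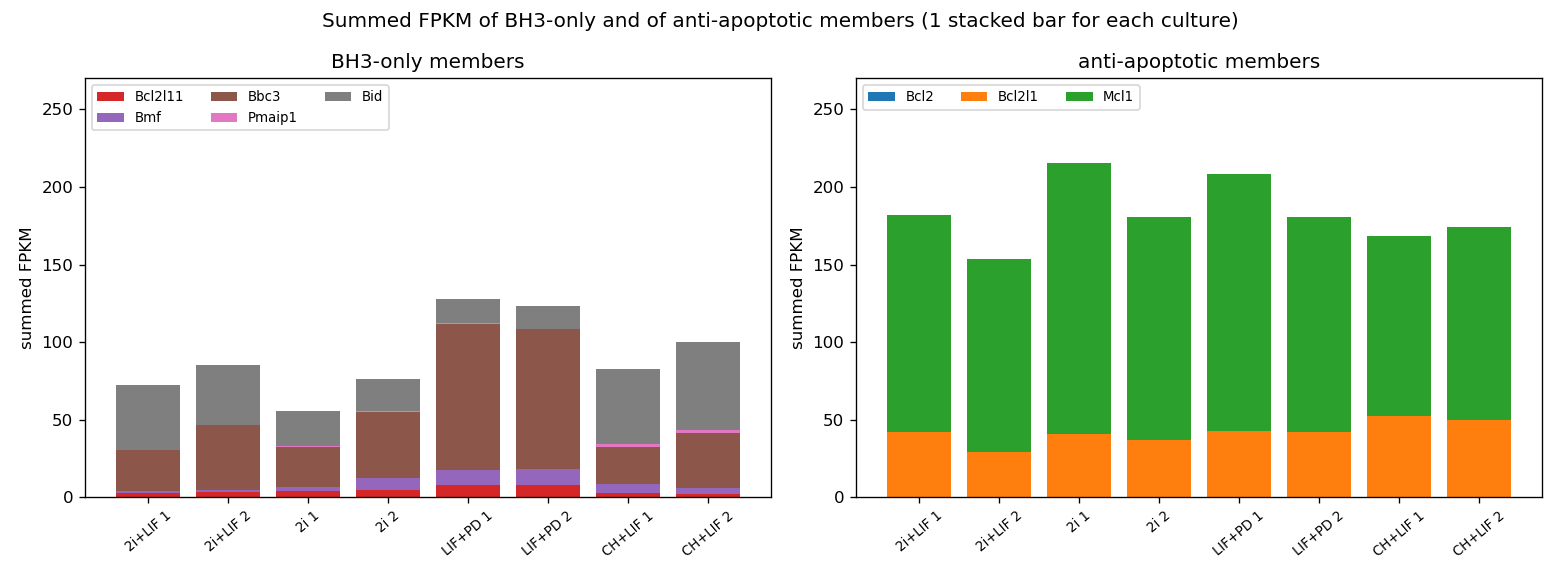
Summed FPKM of the 5 BH3-only genes and of the 3 anti-apoptotic genes in each of the 8 cultures, with bars from 0 divided by gene. The anti-apoptotic sums run from 153.8 to 215.2 FPKM and the BH3-only sums from 55.7 to 127.7 FPKM, with Bbc3 the main part of the BH3-only bars in LIF+PD.

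The rest of the apoptosis pathway was described with a list of 45 other genes (other BCL2 relatives, caspases and apoptosome components, inhibitors of apoptosis and death receptors), of which 37 were tested. Among them, Bik entered only through its level in LIF+PD, so its calls in contrasts with that condition were partly fixed by the filter. The counts below include Bik as higher in LIF+PD against 2i+LIF and against 2i, and as lower in CH+LIF against LIF+PD. Against 2i+LIF, 2 of the 37 were higher and 4 lower in 2i, 4 higher and 2 lower in LIF+PD, and 3 higher and 6 lower in CH+LIF. These are 16.2%, 16.2% and 24.3% of the 37, beside 18.6%, 25.2% and 25.4% of all genes tested. The medians of their log2 differences were -0.036, -0.0048 and 0.025, beside 0.035, 0.034 and 0.0070 over all genes tested. LIF+PD against 2i gave 9 higher and none lower, CH+LIF against 2i 5 and 3, and CH+LIF against LIF+PD 2 and 7, which are 24.3%, 21.6% and 24.3% beside 25.1%, 23.9% and 30.4%. By direction, LIF+PD against 2i had 24.3% higher and none lower, beside 14.0% and 11.1% of all genes. CH+LIF against 2i had 13.5% higher and 8.11% lower, beside 10.6% and 13.3%. CH+LIF against LIF+PD had 5.41% higher and 18.9% lower, beside 12.6% and 17.8%. In LIF+PD against 2i the count fell to 5 without 2i replicate 1 and to 3 and 4 without LIF+PD replicates 1 and 2. In 2i against 2i+LIF the count of 6 became 3 without either 2i+LIF replicate. In CH+LIF against 2i+LIF the count of 9 became 3 and 5 without 2i+LIF replicates 1 and 2, and 4 without either CH+LIF replicate. CH+LIF against 2i gave 5 in place of 8 without CH+LIF replicate 2, and CH+LIF against LIF+PD gave 4 in place of 9 without CH+LIF replicate 2 or LIF+PD replicate 1, and 3 without LIF+PD replicate 2.

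Bik, a further BH3-only gene, had 0.244 and 0.666 FPKM in 2i+LIF and 4.86 and 4.58 FPKM in LIF+PD. The log2 difference was 1.99 ± 0.24 (SE). It is given as a description without a test, because Bik passed the filter only through its level in LIF+PD. Tnfrsf10b, the mouse TRAIL receptor, rose there by 1.22 ± 0.19 (adjusted p = 0.00464), from 6.03 and 7.06 to 15.4 and 17.8 FPKM. The largest falls in LIF+PD were those of Htra2, a mitochondrial protease that antagonises inhibitors of apoptosis, by -0.79 (adjusted p = 0.0103), and of Tradd, a death receptor adaptor, by -0.69 (adjusted p = 0.00594). Neither fall was particular to LIF+PD. Tradd was also lower in 2i by -0.80 (adjusted p = 0.00428) and in CH+LIF by -0.67 (adjusted p = 0.00701). Htra2 was lower in CH+LIF by -0.55 (adjusted p = 0.0375) and, short of the threshold, in 2i by -0.48 (adjusted p = 0.0718). In 2i, Tnfrsf1a, the TNF receptor, fell from 46.0 and 39.5 to 4.64 and 8.33 FPKM, by -2.59 ± 0.36 (adjusted p = 0.00353).

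Birc2, an inhibitor of apoptosis, rose in 2i by 0.41 ± 0.11 (SE, adjusted p = 0.0389), to 11.5 and 10.9 FPKM from a mean of 8.22 FPKM in 2i+LIF. That rise was not called with only the 2 conditions in the fit, without either 2i+LIF replicate or without 2i replicate 1. In CH+LIF, Bok, an effector relative of Bax, rose by 0.73 (adjusted p = 0.0116). Dffa, which encodes the inhibitor of a caspase-activated DNase, rose there by 0.46 (adjusted p = 0.0234). Neither of these rises was called without 2i+LIF replicate 1 or without either CH+LIF replicate. Bcl2l14 fell in CH+LIF by -1.26 (adjusted p = 0.0022), from 5.58 and 4.49 to 1.43 and 1.60 FPKM. Of the 5 other anti-apoptotic relatives only Bcl2l2, named after its values were seen, passed the filter, and it did not pass the test in any of the 6 comparisons.

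Known transcriptional regulators of the family were read beside it. Trp53 RNA, which encodes p53, was at 269 to 375 FPKM and did not pass the test against 2i+LIF (adjusted p = 0.301 in 2i, 0.768 in LIF+PD and 0.366 in CH+LIF). Foxo3 was higher in LIF+PD by 0.53 ± 0.16 (SE, adjusted p = 0.0490), a call close to the threshold. Its 2 LIF+PD cultures were unequal, at 22.3 and 16.5 FPKM, beside 12.1 and 13.9 FPKM in 2i+LIF. Foxo1 was higher in 2i by 0.87 (adjusted p = 0.00372) and in CH+LIF by 0.81 (adjusted p = 0.00452) but not past the threshold in LIF+PD (0.29, adjusted p = 0.120). Of 11 other p53 target genes, 9 were higher and 1 lower in LIF+PD than in 2i+LIF, beside 14.8% higher and 10.4% lower of all genes, the lower one being Cdkn1a at -1.58 (adjusted p = 8.98e-05), named after its value was seen. The list gave 3 higher and none lower in 2i (9.77% and 8.86% of all genes), and none higher and 4 lower in CH+LIF (12.2% and 13.3%).

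Genes whose pattern lay closest to that of each member with a call against 2i+LIF were found by Pearson's r of log2(FPKM + 1) over the 8 cultures, which fall in 4 conditions and so give few independent points. For Bcl2l11 they were Enah (r = 0.996) and Lmx1b (r = 0.995), the latter with a mean of 0.363 FPKM in 2i+LIF and 10.5 FPKM in LIF+PD. For Bmf they were Slc12a4 (0.984) and Ankrd13c (0.981), and for Bbc3 Crebbp (0.982) and Uhmk1 (0.978). For Bid they were Gm17688 (0.997) and Ifrd2 (0.992), the latter with means of 48.9 FPKM in 2i+LIF and 29.9 FPKM in LIF+PD. For Pmaip1 they were Slc39a14 (0.986) and Gm9855 (0.983), for Bcl2l1 Dph3 (0.975) and Prmt5 (0.971), and for Bak1 Tnrc18 (0.970) and Map4k3 (0.962). Such coefficients are the highest of 12927 and describe these cultures only.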

How the data were processed

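Single-end reads had been mapped by the authors to GRCm38 (mm10) using TopHat2 and the Ensembl 75 gene models. The submitters' processing notes also name Cufflinks and Cuffdiff without a role. The authors deposited 1 FPKM value for each gene in each culture, with bounds on either side. Libraries are called rRNA-depleted in the methods and polyA RNA in the labels. The authors' DESeq2 test of read counts was not used here. Duplicate identifiers (22) were summed. FPKM carry no counts and whole reads could not be recovered, so no counting error is given. Relative depth was estimated from the commonest ratio of low values between cultures, and 2 cultures per condition limit the precision. Values were analysed as log2(FPKM + 1) with limma 3.58.1 (trend) in R 4.3.3, on genes with at least 1 FPKM in at least 2 of 8 cultures, in place of the counts test. Summaries used Python 3.11.15 and pandas 2.3.3. The limma script was tested on simulated data. Deposited starts count from 0, and 1 was added. The 10 members and all lists were chosen with earlier results of these data known. Named genes were the members, the 4 pathway readouts, Trp53, Foxo3 and Foxo1, the 2 largest rises and falls among listed apoptosis genes in each comparison with 2i+LIF, and the 2 nearest patterns per called member. Some genes that this rule selects are not reported here. Alternatives were other pseudocounts, no filter, median-of-ratios and quantile scaling, a replicate block, only the 2 conditions compared, and each culture left out. The midpoint of the bounds was added after seeing the data.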

Additional observations from a re-analysis of the deposited data

How the results depend on the processing

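Pmaip1 set aside, 19 member differences passed the threshold, and 7 kept their direction and call in all alternatives run: Bid in 2i and LIF+PD against 2i+LIF and in CH+LIF against 2i and against LIF+PD, Bcl2l11 in LIF+PD against 2i+LIF and in CH+LIF against LIF+PD, and Bmf in LIF+PD against 2i+LIF. None of the 19 changed direction. Pmaip1 had no value where a CH+LIF culture was left out or where neither condition was CH+LIF in a fit of 2 conditions. Member counts from here on also leave out Pmaip1. The count of members in 2i against 2i+LIF was 1, with 2 at a pseudocount of 0.1 and 3 with the midpoint of the bounds. In CH+LIF against 2i+LIF it was 2, with 0 under no filter and 1 with only the 2 conditions compared. That count was 3 with a pseudocount of 0.1, quantile normalization or the midpoint of the bounds. In CH+LIF against 2i it was 3, with 1 for only the 2 conditions compared and 4 with quantile normalization.

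With a replicate block the count of members in 2i against 2i+LIF was 1, and in the other 5 comparisons it was 2 to 5. The limma call of Pmaip1 in 2i against 2i+LIF was lost there (adjusted p = 0.0504). Calls were gained there for Mcl1 in CH+LIF against 2i (adjusted p = 0.0432) and for Bak1 in LIF+PD against 2i (adjusted p = 0.0453). Replicate numbers did not pair the cultures, since correlations of same-numbered deviations ran from -0.0283 to 0.0925 over 6 pairs of conditions.

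Leaving out 1 culture at a time moved the called counts in 2i and CH+LIF against 2i+LIF and in LIF+PD against 2i. It also moved them in CH+LIF against 2i and against LIF+PD. Counts of other apoptosis genes ran from 3 to 6, 3 to 11, 3 to 8, 5 to 8 and 3 to 9 in the same order. A condition left with 1 culture borrows the spread of the others. The ratio gave 0.17 in 2i with a mean of log2(FPKM + 1), 1.34 in LIF+PD with Bid left out, and in CH+LIF -0.32 with Mcl1 and -0.00400 with Bid left out. Without 1 culture it ran from -0.0590 to 0.42 in CH+LIF, -0.857 to -0.153 in 2i and 0.222 to 0.704 in LIF+PD.

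Differences that changed direction were all short of the threshold. With the midpoint of the bounds these were Bak1 in CH+LIF against 2i+LIF (0.019) and Bmf in CH+LIF against 2i (-0.14), and the latter also with a pseudocount of 5 (-0.013). With 1 culture left out they ranged over 0 for Bcl2l1 in 2i against 2i+LIF (-0.11 to 0.40), Bbc3 in 2i against 2i+LIF (-0.36 to 0.36), Bbc3 in CH+LIF against 2i+LIF (-0.54 to 0.14), Bak1 in CH+LIF against 2i+LIF (-0.094 to 0.047), Mcl1 in LIF+PD against 2i (-0.20 to 0.078), Bmf in CH+LIF against 2i (-0.57 to 0.58), Bbc3 in CH+LIF against 2i (-0.56 to 0.17).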
